A study of Mus musculus with 24 samples.

Results

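Cytosolic ribosomal proteins were followed through 2 experiments on the integrated stress response in mouse fibroblast lines, in which 24 oligonucleotide arrays fell into 12 groups of 2. The members are all probe sets whose single gene symbol starts with Rpl or Rps and a number, or is Rpsa, Rplp0, Rplp1 or Rplp2, with the Rps6k kinases left out. This rule, which uses names and no measured value, took 35 of the 8251 genes that have a probe set with a single symbol, measured by 49 of 12422 probe sets. In the tunicamycin experiment, wild-type, ATF4-/- and PERK-/- fibroblasts were untreated or treated with tunicamycin at 2 ug/ml, an inhibitor of N-linked glycosylation that causes misfolding in the endoplasmic reticulum. Treatment lasted 6 h in wild-type and ATF4-/- cells, and the labels give no duration for PERK-/- cells. In the Fv2E-PERK experiment, the kinase domain of PERK was fused to a module that the drug AP20187 dimerizes, so that PERK signals without misfolded protein. The line called SS carries wild-type eIF2alpha, and the transgene was put into a PERK-/- background because clones with high expression were not obtained in wild-type cells. The line called AA carries eIF2alpha that cannot be phosphorylated at the PERK site, and the labels do not state its PERK background. Both lines were untreated or given AP20187, at a dose that the labels write as 2 nm, for 4 h or 8 h. Each genotype is 1 line, so a difference between genotypes is also a difference between lines, and no label tells whether paired arrays were separate cultures. The p-values therefore measure the spread between arrays, which may be technical.

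Ribosomal proteins are the structural parts of the small (40S, Rps) and large (60S, Rpl) ribosomal subunits, built in nearly equal amounts in every growing cell. Their mRNAs are among the most abundant in a fibroblast, and they typically begin with a C and a run of pyrimidines at the cap, the 5′ terminal oligopyrimidine (TOP) tract, through which mTOR signalling sets how well they are translated. PERK phosphorylates eIF2alpha, which lowers initiation of most mRNAs and raises translation of ATF4, a transcription factor of amino acid supply and stress genes.

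Start-site sequences are shown for the genes whose probe sets passed a test in the Fv2E-PERK experiment, Rpl13a, Rps27 and Rpl39l, and for Rps18, a 40S protein whose group means hardly moved. The sequences come from RefSeq on GRCm38.p6, read 5′ to 3′ on the gene's strand from 35 bases before the annotated start to 15 bases from it on. Capitals mark a pyrimidine run, defined as at least 6 C or T letters in a row counted from a C, beginning in the 5 bases before the annotated start or the first 15 from it.
Rpl13a: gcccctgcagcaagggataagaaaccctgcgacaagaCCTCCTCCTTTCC
Rps27: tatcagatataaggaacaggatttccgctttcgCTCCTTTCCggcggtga
Rps18: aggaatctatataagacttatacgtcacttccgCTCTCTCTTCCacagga
Rpl39l: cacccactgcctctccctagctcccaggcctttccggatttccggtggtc
These stretches are chr7:45128731-45128780, chr3:90213634-90213683 and chr17:33955651-33955700 on the minus strand, and chr16:10170193-10170242 on the plus strand. Rpl13a, Rps27 and Rps18 have runs of 14, 9 and 11 letters, of which the last letter of the Rpl13a run lies beyond the printed bases. The window of Rpl39l, a paralog of Rpl39 best known from testis, holds no run that meets the definition. A run of C and T letters ends directly before its annotated start but begins too early to count. Rpl37a, Rps28, Rplp0 and Rpl10a, not printed here, had no run by the definition either. Start-site windows of 300 bases (250 before the annotated start and 50 from it on) were matched for 28 of the 35 genes. The run was found in 10 of these 28 genes (35.7%), against 18.4% of all 27025 genes with a window. The letters TTCCGG, searched on both strands, were in 17 of 28 (60.7%) against 16.7% of all genes, and AAGATGGCG, searched on both strands, in 4 of 28 (14.3%) against 1.64%. TATAAA, searched on both strands, was in 4 of 28 (14.3%) against 15.7%. TTCCGG can overlap the end of a pyrimidine run, as it does in Rps27. A match is a description of letters in this window and does not show a working site.

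Every deposited value is a ratio that sets a probe set against its median over all arrays, since that median lay within 0.01 of 1 for 91.46% of them. Levels of different genes therefore cannot be compared, and the processing behind the ratios is not given in the sources used here. The lowest ratio, 0.01, stood for 22.6 to 25.6% of values on each tunicamycin array and for at most 0.105% on each Fv2E-PERK array, so the experiments were analysed separately, with no comparison of levels between them. The targeted gene Atf4 read 0.17, 0.13, 0.17 and 0.15 in the ATF4-/- arrays against 0.75 to 1.64 in wild type. The 1 probe set for Eif2ak3, which encodes PERK, read 0.24 to 0.99 in PERK-/- arrays, and in wild type 1.91 to 2.26 on 3 arrays and 0.02 on untreated replicate 2, so it does not check that label cleanly. Of 10 fibroblast markers 8 had a probe set that was never at 0.01, as had 3 of 12 markers of other cell types (Cdh1, Cd68 and Des), whose levels cannot be read from ratios. Ddit3, which encodes the stress factor CHOP, rose 17.4-fold with tunicamycin in wild type and 6.52-fold after 8 h of AP20187 in SS (limma, adjusted p = 0.00105 and 2.46e-05).

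Of the 49 member probe sets, 35 for 29 genes were never at 0.01 on any array and were among the 7369 probe sets tested. The other 14 are given as values below. A member entered the test only if it was above 0.01 everywhere, so the 35 are not all members. Tests used log2(ratio + 0.247), which understates the change of low values, with limma and Benjamini-Hochberg adjustment over all 7369 probe sets, two-sided at 0.05.

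On the tunicamycin arrays the members varied little beside other genes. The median member ratio ran from 0.873 to 1.14 over the 12 arrays, and the residual SD of the median member was 0.158 on the log2 scale against 0.249 for the median tested probe set. The smallest spread of group means belonged to Rps18, at 0.065 (SD of 6 means, log2), followed by Rpl7 at 0.0657 and Rps4x at 0.0704, against 0.253 for the median tested probe set. The widest were a second Rpl19 probe set (0.645), the third Rps28 probe set (0.618), Rps20 (0.37), Rpl39l (0.329) and Rpl39 (0.319). For Rpl19, Rps20 and Rpl39l the SD between replicates was larger than that of the group means, at 1.13, 1.07 and 0.538.

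Replicates of one group often differed by a shift that most members shared, and the shift was widest on the Fv2E-PERK arrays. In untreated SS cells the median ratio of the 35 members was 0.827 on replicate 1 and 1.2 on replicate 2, and 30 of 35 members were higher on replicate 2, by a median of 0.5 (log2), while over all tested probe sets the median was 0.11. In untreated AA cells the figures were 0.937 and 1.29, again with 30 of 35 higher on replicate 2, by a median of 0.342, against -0.015 over all. SS cells at 8 h gave 0.97 and 1.22, with 31 of 35 higher on replicate 2, by a median of 0.321 against 0.11 over all. There 65.9% of all tested probe sets were higher on replicate 2. In SS at 4 h 29 of 35 members were higher, by a median of 0.125, against 54.8% and 0.027 over all. Among the tunicamycin groups the widest shifts ran the other way. Member medians were -0.207 in untreated PERK-/- (11 of 35 higher on replicate 2), -0.17 in treated PERK-/- (8 of 35) and -0.146 in treated ATF4-/- cells (7 of 35). Over all tested probe sets they were -0.069, -0.0072 and -0.055. On the Fv2E-PERK arrays the shift was smallest in AA cells at 4 h, where the member medians were 1.11 and 1.1 and 15 of 35 were higher on replicate 2. Rplp0, the core of the P stalk that recruits elongation factors, shows the pattern: 0.669 and 1.11 in untreated SS, 0.753 and 1.12 in untreated AA, and 0.783 and 1.1 in SS at 8 h. The SD between replicates of the median member was 0.233 in this experiment against 0.199 for all tested probe sets, the reverse of the order on the tunicamycin arrays.

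Other abundant transcripts on the same arrays are given beside this. The control probe sets for the 3′ end of Gapdh read 0.903 and 1.43 on untreated SS replicates 1 and 2, and those for its 5′ end 0.912 and 1.46. Actb read 0.569 and 0.89 at its 3′ end. The probe sets for 18S rRNA set replicate 1 of untreated SS apart from the 11 other arrays of the experiment: the middle probe set read 63.1 against 1.5 to 5.38, the 5′ probe set 48.5 against 0.746 to 8.03 and the 3′ probe set 3.19 against 0.319 to 0.754. The part of this array in the member results was not tested, so the member calls and medians and the list counts that use it are also given without it where it moves them.

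**Figure D1:**
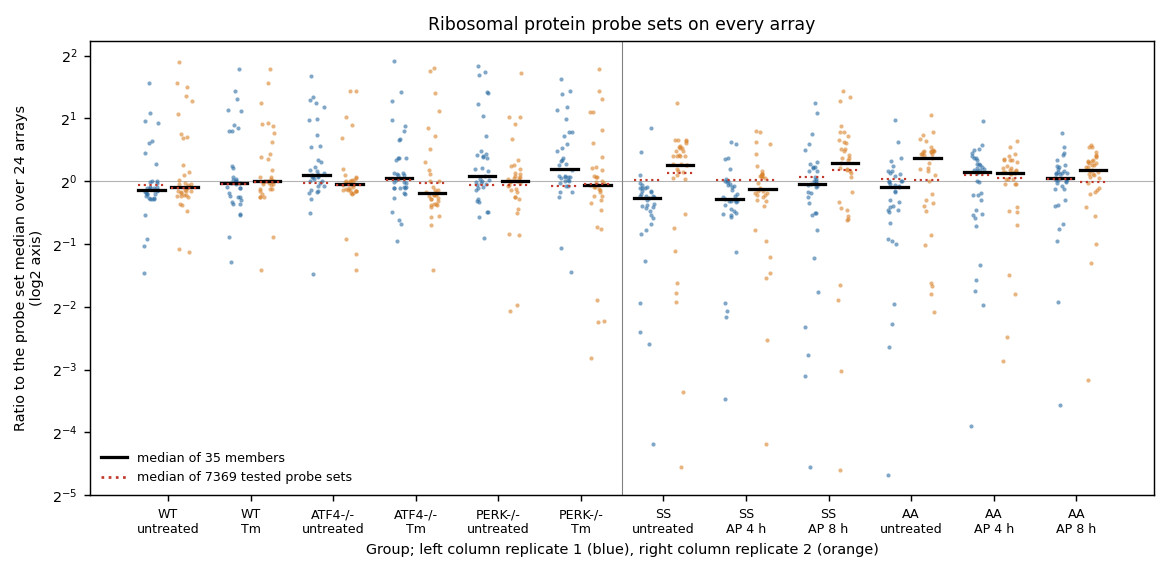
Ratio of each of the 35 tested ribosomal protein probe sets to its own median (points, log2 axis) on the 24 arrays, replicate 1 left in blue and replicate 2 right in orange in each of the 12 groups, with the median of the members (black) and of all 7369 tested probe sets (dotted). Member medians lie between 0.873 and 1.14 on the tunicamycin arrays and split between replicates in untreated SS (0.827 and 1.2) and untreated AA (0.937 and 1.29).

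In wild-type cells tunicamycin changed no member past the threshold. None of 35 was called, against 0.841% of all tested probe sets. None had an unadjusted limma p under 0.05, against 10.7% of all. Of 35 differences 25 were above 0, with a median of 0.0934 (log2) against 0.02 over all. That median was 0.0464 (21 of 35 above 0) with arrays centred on their median and 0.0473 (22 of 35) with quantile normalization. Rplp0 read 0.934 and 0.927 untreated and 1.15 and 1.04 treated. Rps18 read 0.851 and 0.878 untreated and 1.01 and 0.994 treated, and both genes' treated arrays lay above the untreated ones. Rps3, which lines the mRNA entry channel of the small subunit, read 0.999 and 0.895 against 1.02 and 1.01. The largest upward difference was Rpl39, a small protein of the peptide exit tunnel, with 0.991 and 1.11 untreated and 1.79 and 1.34 treated (log2 difference 0.48 ± 0.236 SE, n = 2 per group, adjusted p = 0.546 by limma). The lowest was Rpl37a of the large subunit, with 0.931 and 0.96 untreated and 0.688 and 0.866 treated (-0.22 ± 0.129 SE, limma adjusted p = 0.616).

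In ATF4-/- cells the same treatment left 13 of 35 members above 0 and 22 below, with a median of -0.0568 against 0.003 over all. No member was called (0.421% of all tested probe sets were). An unadjusted limma p under 0.05 was found for 4 of 35 members, all of them lower after treatment. Of all tested probe sets 8.7% had such a p, so the members' share was near that of all. Rpl37a read 1.05 and 0.996 untreated and 0.708 and 0.682 treated (-0.43 ± 0.129 SE, adjusted p = 0.319 by limma). Rps28, a small 40S protein near the mRNA exit, read 0.907 and 0.893 untreated and 0.653 and 0.615 treated on one probe set (-0.38 ± 0.144 SE, adjusted p = 0.461 by limma). Its second probe set read 0.881 and 1.04 against 0.625 and 0.674 (-0.43 ± 0.159 SE, adjusted p = 0.453 by limma). Rpl41, the shortest ribosomal protein, read 1.13 and 1.02 untreated and 0.827 and 0.77 treated (-0.33 ± 0.134 SE, adjusted p = 0.512 by limma). For all 4 probe sets the treated arrays lay below the untreated ones, and none of the differences passed the adjusted test. The largest difference upward with separated arrays was again Rpl39, at 1.67 and 1.15 untreated and 1.75 and 2.18 treated (0.43 ± 0.236 SE, limma adjusted p = 0.647). Rpl13a read 0.7 and 0.527 untreated and 0.93 and 0.765 treated (limma adjusted p = 0.757).

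PERK-/- cells showed no called member either, with 0% of all tested probe sets called. No member had an unadjusted p under 0.05 by limma, against 7.15% of all. Of 35 members 23 were above 0, with a median of 0.0488 against 0.00062 over all. Both probe sets of Rpl10a, a large subunit protein at the L1 stalk, were higher on both treated arrays: 0.708 and 0.84 untreated against 1.02 and 0.845 on one, and 0.708 and 0.732 against 0.949 and 0.816 on the other (0.21 and 0.22, limma adjusted p = 0.907 and 0.849). Rplp0 read 1.03 and 1.04 untreated and 1.14 and 1.13 treated. No member differed downward with arrays that did not overlap.

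The dependence of the tunicamycin response on ATF4 and on PERK was tested as the difference of the responses. For ATF4-/- minus wild type the response was lower for 27 of 35 members, with a median of -0.136 against 0.0011 over all. This median stayed between -0.229 and -0.0576 when any 1 of the 8 arrays was left out. No member passed the test, nor did any of the 7369 probe sets (0%). No member had an unadjusted limma p under 0.05, against 4.91% of all. The lowest with separated array pairs were Rpl41 (-0.34 ± 0.189 SE), Rps28 (-0.33 ± 0.225) and Rps24 (-0.32 ± 0.193), each with adjusted p = 1 by limma. For PERK-/- minus wild type 15 of 35 lay above 0, with a median of -0.0406 against -0.017 over all. By limma 0% were called, and 0 members had an unadjusted p under 0.05, against 7.61% of all. One Rpl19 probe set was lowest, at -1.09, but its array pairs overlapped. The lowest with separated array pairs were Rpl39 (-0.55 ± 0.333 SE, limma adjusted p = 0.795) and Rps27 (-0.54 ± 0.277, limma adjusted p = 0.722). Both differences use the wild-type arrays, so they are not independent of each other.

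Among untreated lines, no member differed past the threshold from wild type in ATF4-/- (0.095% of all called) or PERK-/- cells (1.66% of all called). In ATF4-/- cells 25 of 35 members lay above 0 with a median of 0.0985 (all 0.021), and in PERK-/- cells 20 of 35 with a median of 0.0671 (all 0.013). At an unadjusted p under 0.05 there were 1 and 2 members by limma, against 7.08% and 15.8% of all. Both comparisons share the wild-type arrays too. Rpl39 read 0.991 and 1.11 in wild type and 2.06 and 2.03 in PERK-/- cells, a 1.95-fold difference (log2 0.82 ± 0.236 SE, n = 2, limma adjusted p = 0.14). The third Rps28 probe set read 0.688 and 1.61 in wild type, 2.44 and 2.7 in ATF4-/- and 3.21 and 3.31 in PERK-/- cells (1.09 and 1.41, limma adjusted p = 0.644 and 0.171). The first Rps28 probe set read 0.94 and 0.94 in wild type, 0.907 and 0.893 in ATF4-/- and 1.33 and 1.06 in PERK-/- cells. The second read 0.982 and 1.015, 0.881 and 1.04, and 1.39 and 1.15 in the same order. Rps3 read 0.793 and 0.558 in PERK-/- cells, below both wild-type arrays (-0.38 ± 0.181 SE, limma adjusted p = 0.354). Rps19, the 40S protein most often mutated in Diamond-Blackfan anaemia, read 0.804 and 0.551 there against 0.872 and 0.858 in wild type (-0.28 ± 0.176 SE, limma adjusted p = 0.496). Rplp0 (1.03 and 1.04) and Rpl8 (1.14 and 0.957) lay above both wild-type arrays there.

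**Figure D2:**
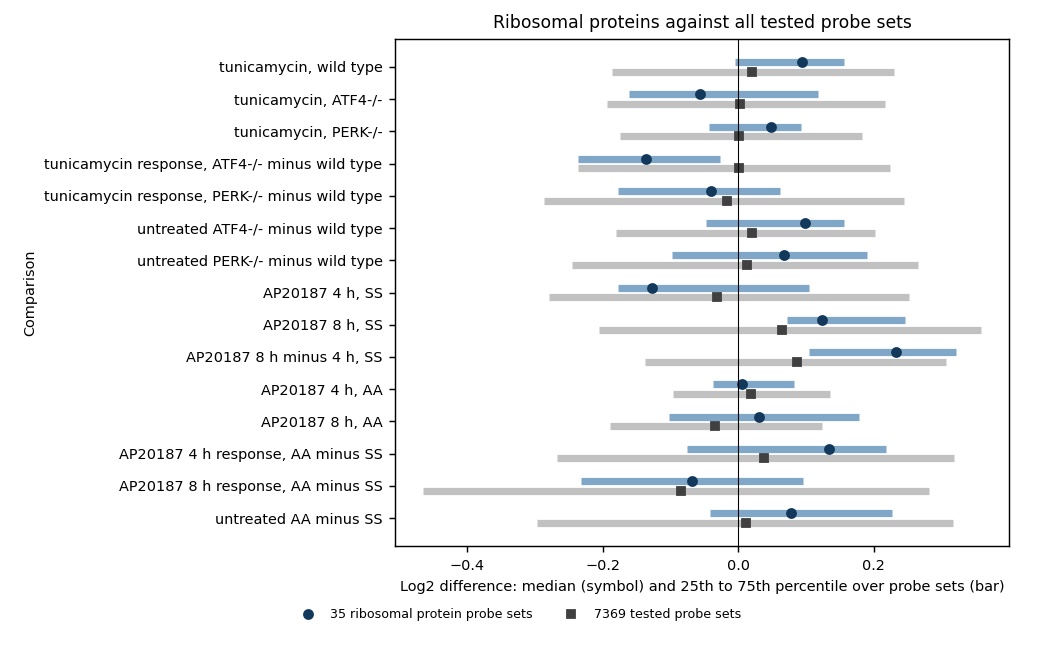
Log2 difference in the 15 comparisons for the 35 tested ribosomal protein probe sets (blue, median with a bar for the interquartile range) and all 7369 tested probe sets (grey). Member medians lie within 0.25 of 0 in every comparison, lowest for the ATF4-/- minus wild type response (-0.136) and highest for SS at 8 h minus 4 h (0.232).

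Activation of Fv2E-PERK in SS cells called 1 member at 4 h and 3 at 8 h, out of 35. At 4 h the called member was lower (Rpl39l), where 12.7% of all tested probe sets were called, 7.42% higher and 5.29% lower. At 8 h 2 were higher (Rpl13a and Rps27) and 1 lower (Rpl39l), where 17% of all were called, 11.9% higher and 5.1% lower. The members' shares of 1 and 3 in 35 thus lay below these backgrounds. As a group, 10 of 35 lay above 0 at 4 h, with a median of -0.127 against -0.031 over all, and 27 of 35 at 8 h, with a median of 0.123 against 0.065. Both medians turn on the untreated SS arrays described above: without replicate 1 they were -0.39 and -0.153, and without replicate 2 they were 0.124 and 0.363. The sign of the member median against untreated cells thus depends on which untreated array is used.

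The change between 4 h and 8 h does not use the untreated arrays. Here 27 of 35 members were above 0, with a median of 0.232 against 0.086 over all, and the median stayed between 0.0948 and 0.414 when any 1 of the 4 arrays was left out. No member passed the limma test (4.11% of all did), and 2 had an unadjusted p under 0.05, against 20.8% of all. The member median was 0.141 with arrays centred on their median and 0.12 with quantile normalization (26 of 35 above 0 in both). With arrays centred on the member median, an alternative chosen after seeing the data, the change over all probe sets was -0.17. Rpl13a read 1.3 and 1.54 at 4 h and 2.13 and 2.72 at 8 h (0.68 ± 0.191 SE, limma adjusted p = 0.0741). Rpl7l1, a paralog of Rpl7, read 1.54 and 1.72 against 2.37 and 2.52 (0.52 ± 0.192, limma adjusted p = 0.154). Rps3 (0.806 and 0.859 against 0.985 and 1.33), Rps19 (1.03 and 1.18 against 1.21 and 1.72) and Rpsa, the laminin-receptor protein of the 40S subunit (0.691 and 0.813 against 0.883 and 1.13), were higher on both later arrays.

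Rpl13a, a large subunit protein known also for a translational silencing role outside the ribosome, rose 1.83-fold after 8 h in SS. It read 1.07 and 1.58 in untreated cells, 1.3 and 1.54 after 4 h of drug, and 2.13 and 2.72 after 8 h. The 8 h arrays lay above all 4 others (log2 0.77 ± 0.191 SE, n = 2, limma adjusted p = 0.0185). The AA arrays read 1.3 and 1.66 without drug, 1.42 and 1.26 after 4 h, and 1.45 and 1.2 after 8 h, and these overlap. The difference of the 8 h responses was -0.91 ± 0.271 (AA minus SS, limma adjusted p = 0.0617). Over the 11 alternatives the SS adjusted p ran from 0.012 to 0.152. It missed the threshold in 4 of the 11: without untreated SS replicate 1, without 8 h replicate 2, with quantile normalization, and with no filter on low values. Without untreated SS replicate 1 the difference was 0.54 (limma adjusted p = 0.127), and without 8 h replicate 2 it was 0.61 (limma adjusted p = 0.152).

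Rps27, a zinc-finger protein of the 40S subunit, rose 1.58-fold at 8 h. Its SS ratios were 0.844 and 1.21 without drug, 1.28 and 1.51 after 4 h, and 1.51 and 1.72 after 8 h. Both untreated SS arrays lay below all treated ones (8 h, log2 0.56 ± 0.17 SE, n = 2, limma adjusted p = 0.0424). In AA it stayed low, at 0.711 and 0.718, then 0.809 and 0.722, then 0.624 and 0.678, below every SS array. The 8 h response differed by -0.66 ± 0.24 (AA minus SS, limma adjusted p = 0.109). The SS call held in 4 of 11 alternatives, with adjusted p from 0.0214 to 0.245, and was lost without untreated replicate 1 (0.36, limma adjusted p = 0.245) or without 8 h replicate 1 or 2 (limma adjusted p = 0.0871 and 0.227). Another Rps27 probe set carries several gene symbols and is outside the rule.

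Rpl39l was lowest on the Fv2E-PERK arrays in SS at 8 h and highest there in AA at 8 h. Its SS ratios were 0.624 and 0.696 in untreated cells, 0.26 and 0.173 after 4 h, and 0.117 and 0.122 after 8 h. The 3 SS groups did not overlap. It fell by 0.97 ± 0.266 (log2, SE) at 4 h (limma adjusted p = 0.0348, n = 2) and by 1.31 ± 0.266 at 8 h (limma adjusted p = 0.00715), where the mean ratio was 0.181 of that in untreated cells. The AA ratios were 0.206 and 0.289 in untreated cells, 0.395 and 0.138 after 4 h, and 1.09 and 0.906 after 8 h, and that 8 h difference of 1.34 ± 0.266 had limma adjusted p = 0.55 in a comparison in which 0% of all probe sets were called. The 8 h responses differed by 2.64 ± 0.377 (AA minus SS, limma adjusted p = 0.00346). The 8 h fall passed under all 11 alternatives and the difference of responses under all 15. Without untreated SS replicate 1 they were -1.36 and 2.70 (limma adjusted p = 0.0333 and 0.0127). The 4 h fall passed under 2 of 11, and leaving out any 1 of its 4 arrays lost it (limma adjusted p from 0.0839 to 0.184). Untreated AA cells were below untreated SS cells for Rpl39l (-0.88 ± 0.266, limma adjusted p = 0.039), which passed under 3 of 11 alternatives and was likewise lost without any 1 array. On the tunicamycin arrays its replicates spread widely, from 1.55 and 3.71 in untreated wild type to 1.97 and 0.776 in treated ATF4-/- cells.

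**Figure D3:**
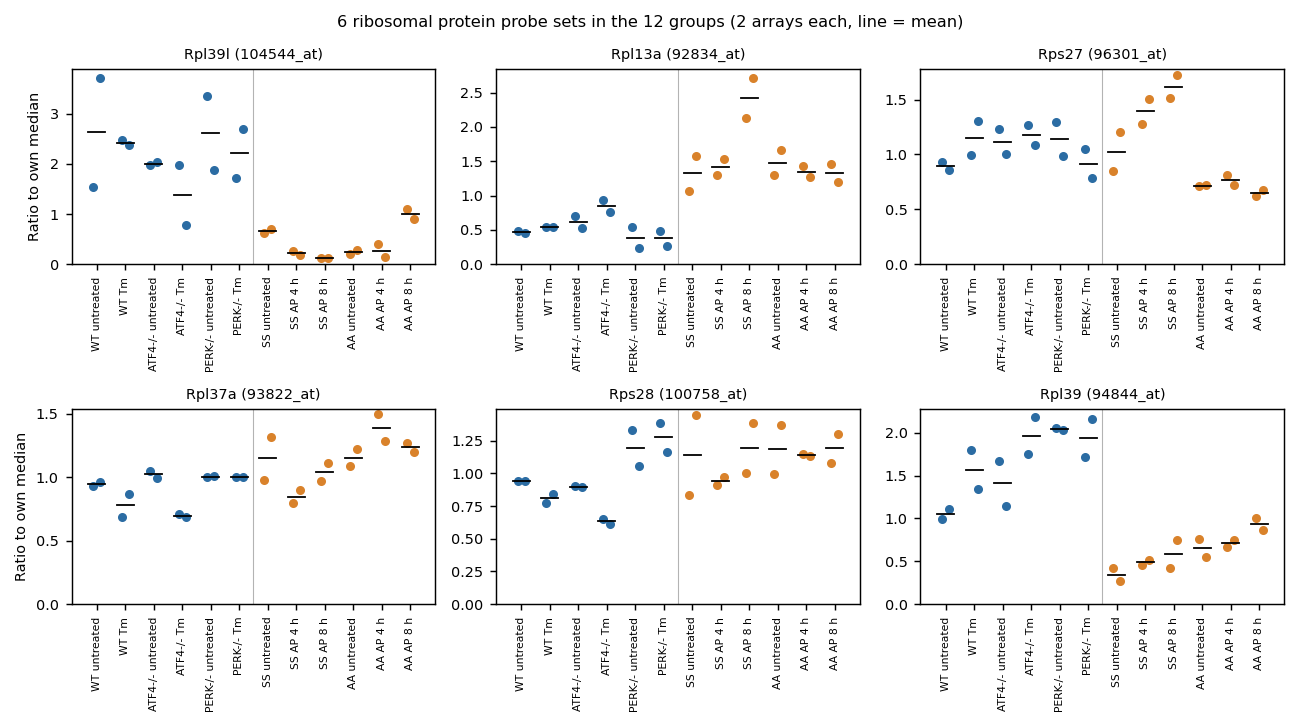
Ratios of 6 ribosomal protein probe sets on the 2 arrays of each of 12 groups (points) with the group mean (line), tunicamycin experiment in blue and Fv2E-PERK experiment in orange. Rpl39l falls from 0.624 and 0.696 to 0.117 and 0.122 over 8 h in SS and reads 1.09 and 0.906 at 8 h in AA, and Rpl13a is highest in SS at 8 h (2.13 and 2.72).

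In AA cells no member was called at 4 h or 8 h, and neither was any of the 7369 probe sets (0% and 0%). At 4 h 18 of 35 lay above 0 with a median of 0.00621 (all 0.019), and at 8 h 22 of 35 with a median of 0.0309 (all -0.035). At an unadjusted limma p under 0.05 there were 0 members at 4 h and 2 at 8 h, against 3.16% and 6.51% of all. The 2 were Rpl39l and one probe set of Rpl10a. That Rpl10a probe set read 1.54 and 2.08 untreated and 1.34 and 1.05 at 8 h in AA, but 1.38 and 1.58 untreated and 1.68 and 2.43 at 8 h in SS. Its 8 h responses differed by -0.91 ± 0.27 (AA minus SS, limma adjusted p = 0.0611), and the other Rpl10a probe set by -0.63 ± 0.274 (limma adjusted p = 0.178).

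For the AA minus SS difference of responses as a whole, no member was called by limma at 4 h (2.28% of all were). At 8 h 1 was called, Rpl39l (8.78% of all were). At 4 h 2 members had an unadjusted limma p under 0.05, against 16.9% of all. The member medians were 0.134 at 4 h (25 of 35 above 0, all 0.038) and -0.0688 at 8 h (13 of 35 above 0, all -0.085). Leaving out 1 array moved these medians across 0, from -0.119 to 0.387 and from -0.369 to 0.15. Rpl37a at 4 h read 0.981 and 1.32 untreated and 0.795 and 0.894 in SS, but 1.09 and 1.22 untreated and 1.49 and 1.28 in AA (0.57 ± 0.221, limma adjusted p = 0.22). One Rps29 probe set at 8 h differed by 0.74 ± 0.304 (limma adjusted p = 0.157), and the other by -0.0751. In untreated cells, AA against SS, the only called member of 35 was Rpl39l, where 19.3% of all probe sets were called. The 4 h and 8 h comparisons of a line share its untreated arrays.

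Several genes have more than 1 tested probe set, and these did not move as one. The 2 probe sets of Rpl10a had the same sign in 15 of 15 comparisons. Those of Rpl19 shared a sign in 3 of 15, those of Rps24 and of Rps29 in 6 of 15 each, and the 3 of Rps28 in 6 of 15. The main Rpl19 probe set stayed between 0.83 and 1.04 on every tunicamycin array, whereas the other ran from 0.142 to 3.75. Rps29 read 1.94 to 3.47 on one probe set over all tunicamycin arrays except 1 (1.76), and 0.0391 to 0.237 on the Fv2E-PERK arrays, while its other probe set read 0.53 to 1.86 and 0.65 to 1.26. Of the 35 tested probe sets 28 have the platform's plain suffix and 7 have one that marks a less specific design. Ribosomal protein genes have many processed pseudogenes, and such copies cannot be told apart here.

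The 14 members with a value at 0.01 hold 6 genes that no tested probe set covers: Rpl32, Rpl35a, Rps13, Rps14, Rps15 and Rps27l. At 0.01 on all 12 tunicamycin arrays were Rpl35a and 3 of 5 Rps4x probe sets, and none of the 14 was at 0.01 on an Fv2E-PERK array. Rpl35a read 2 to 8.08 there. The tested Rps4x probe set read 0.749 to 1.05 in the tunicamycin experiment and 0.847 to 1.39 in the other, so the gene had a value on every array. Rps27l, a p53-responsive paralog of Rps27, read 0.01 on 6 tunicamycin arrays and 10.8 to 25.6 on the other 6. Rps14, of the 40S platform, was at 0.01 on 1 tunicamycin array and read 0.71 to 3.48 on the other 11. Rps15, near the decoding centre, was likewise at 0.01 on 1 and read 2.19 to 6.3 on the rest. Rpl32, Rps13, the second Rpl22, Rpl38, Rpl7 and Rps4l probe sets and a further Rps4x probe set were at 0.01 on 1 to 9 of the 12 tunicamycin arrays. Rpl22, which binds RNA and is dispensable in most tissues, had 1 tested probe set, at 1.37 and 2.41 in untreated wild type and 1.28 and 1.04 in untreated PERK-/- cells. A further 39 probe sets name a ribosomal protein among several symbols and are outside the rule.

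The factors that build ribosomes gave more calls than the ribosomal proteins in SS, a contrast that was not itself tested. Of 54 tested probe sets for 49 ribosome biogenesis genes (rRNA transcription, processing and subunit assembly), 21 were higher and 0 lower after 8 h of AP20187 in SS, and 53 of 54 differences were above 0, with a median of 0.529 against 0.123 for the ribosomal proteins. Over all tested probe sets 11.9% were called higher in this comparison, and from 4 h to 8 h 211 of 7369 were called higher and 92 lower. Imp3, of the small subunit processome, gave ratios of 1 and 1.32 without drug, 1.24 and 1.41 after 4 h, and 2.27 and 2.37 after 8 h (0.87 ± 0.14 SE, limma adjusted p = 0.00188). Nop58, a core protein of the snoRNPs that methylate rRNA, read 1.31 and 1.08 untreated and 2.42 and 2.69 at 8 h (0.96 ± 0.169, limma adjusted p = 0.00296). Nmd3, the export adaptor of the 60S subunit, rose 1.73-fold at 4 h and 1.9-fold at 8 h (limma adjusted p = 0.0111 and 0.00328). Taf1b, of the RNA polymerase I selectivity factor, rose 2.02-fold at 8 h and Ltv1, a 40S assembly factor, 1.96-fold (limma adjusted p = 0.00242 and 0.0035). At 4 h 5 were higher and 1 lower, near the background of 12.7% called, and the counts were 2 and 3 without untreated SS replicate 1 and 0 and 0 without either 4 h array. From 4 h to 8 h 12 were higher (4.11% of all were called), but 0 with quantile normalization, no filter or centring on the ribosomal protein median, and 0 or 1 without any 1 array. The 8 h count depended on the setting: 6 with quantile normalization, 9 with no filter, 1 with arrays centred on the ribosomal protein median, 8 without untreated SS replicate 1, and 12 and 7 without 8 h replicate 1 and 2.

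In AA cells 0 biogenesis probe sets were called by limma at 8 h (2 had an unadjusted p under 0.05, against 6.51% of all). A lower 8 h response than in SS was called for 10 of 54, with a median of -0.611 and 8.78% of all probe sets called. That count was 0 with quantile normalization or centring on the ribosomal protein median, 1 with no filter, 4 without untreated SS replicate 1, and 1 to 18 over all 8 arrays left out in turn. In untreated cells 13 of 54 were lower in AA than in SS, where 19.3% of all were called, and 5 without untreated AA replicate 2 or 8 without untreated SS replicate 2. The shares of 8.78% and 19.3% called count either direction. Of 7369 tested, 504 were called lower for the 8 h response difference and 831 lower in untreated AA. Under tunicamycin 0 biogenesis probe sets were called by limma in any line. At an unadjusted limma p under 0.05 there were 11, 11 and 13 of 54 in wild-type, ATF4-/- and PERK-/- cells. Over all tested probe sets the shares were 10.7%, 8.7% and 7.15%. The biogenesis medians were 0.256 in wild type (47 of 54 above 0), 0.283 in ATF4-/- (48 of 54) and -0.336 in PERK-/- cells (7 of 54). The ribosomal protein medians beside them were 0.0934, -0.0568 and 0.0488. The PERK-/- median was -0.109 (17 of 54 above 0) without treated replicate 2 and -0.537 without treated replicate 1. The PERK-/- minus wild type difference had 0 called by limma and 25 of 54 at an unadjusted p under 0.05, against 7.61% of all. Its biogenesis median was -0.608, or -0.373 and -0.811 without treated PERK-/- replicate 2 and 1. The plot of list medians sets these side by side.

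Of 21 tested probe sets for 17 genes with TOP mRNAs outside the rule, 3 were called after AP20187 in SS. All 3 were higher at 4 h and at 8 h, where 7.42% and 11.9% of all were called higher. The 8 h share was thus near that of all. They measure snoRNA host transcripts, which carry TOP tracts but make no ribosomal protein. Snhg5 read 1.6 and 1.21 untreated and 4.89 and 4.38 at 4 h in SS (1.57 ± 0.186 SE, limma adjusted p = 0.000471). Snhg1 rose 2.73-fold and Gas5 2.12-fold at 4 h (limma adjusted p = 0.0022 and 0.015), and 2.98-fold and 2.71-fold at 8 h (limma adjusted p = 0.000996 and 0.00188). In ATF4-/- cells under tunicamycin Snhg5 rose 4.03-fold, Snhg1 3.34-fold and Gas5 2.62-fold (limma adjusted p = 0.00489, 0.0496 and 0.0471). Of all tested probe sets 0.421% were called there. The Snhg5 call passed in 9 of 11 alternatives, Snhg1 in 4 (adjusted p up to 0.359 by limma) and Gas5 in 5 (up to 0.346), and none of the list was called without untreated ATF4-/- replicate 2 or treated replicate 1. Wild-type and PERK-/- cells gave no call of these 3 under tunicamycin (0.841% and 0% of all were called). In wild type both treated arrays still lay above both untreated ones. Snhg5 read 1 and 0.866 untreated and 1.78 and 1.44 treated, Snhg1 0.908 and 0.739 against 2.45 and 2.02. The called Gas5 probe set read 1.04 and 0.68 against 1.82 and 2.1. In PERK-/- cells the arrays overlapped, as for Snhg5 with 0.37 and 0.262 untreated and 0.237 and 0.266 treated. Such host transcripts are known substrates of nonsense-mediated decay. The remaining 18 probe sets of this list, a second one for Gas5 among them, gave no call in these comparisons, and the list median was 0.0848 at 8 h in SS.

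Mitochondrial ribosomal proteins, encoded in the nucleus but assembled into another ribosome, had 65 tested probe sets for 55 genes. In SS 1 was higher and 6 lower at 4 h, and 10 were higher and 0 lower at 8 h, beside backgrounds of 7.42% higher and 5.29% lower at 4 h and 11.9% higher at 8 h, so the 8 h share was near that of all probe sets. The 4 h counts were 0 and 8 without untreated SS replicate 1, and 0 and 1 without either 4 h array. Mrps26 rose 1.66-fold at 4 h and 2.73-fold at 8 h (limma adjusted p = 0.0228 and 0.000394), while Mrpl34 fell to 0.407 of the untreated level at 4 h (limma adjusted p = 0.00701). The 8 h count was 3 higher without 8 h replicate 2 and 4 higher and 1 lower without untreated replicate 1. In AA cells 0 were called by limma at 8 h (1 had an unadjusted p under 0.05), and 5 of 65 had a lower 8 h response than in SS (8.78% of all were called), or 2 without untreated SS replicate 1. The share of all called counts either direction, and 504 of 7369 were called with a lower 8 h response. At 8 h in AA 6.51% of all had an unadjusted limma p under 0.05. Under tunicamycin 0 mitochondrial ribosomal probe sets were called by limma in wild-type, ATF4-/- and PERK-/- cells. At an unadjusted limma p under 0.05 there were 6, 7 and 6 of 65, near the 10.7%, 8.7% and 7.15% of all.

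**Figure D4:**
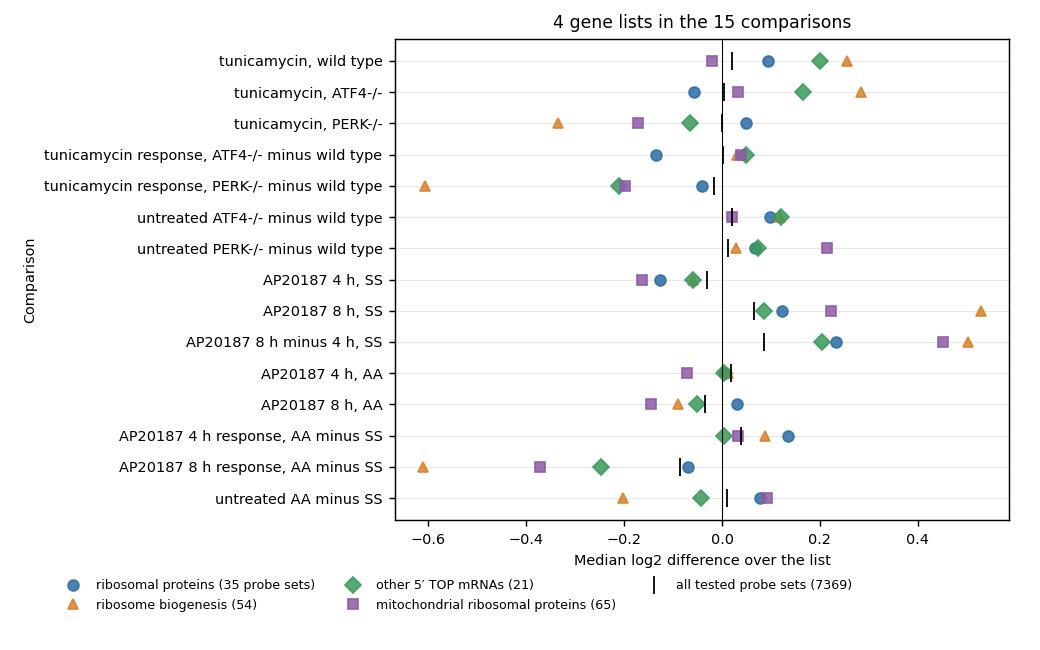
Median log2 difference over 4 lists, the ribosomal proteins (35 probe sets), ribosome biogenesis genes (54), other TOP mRNAs (21) and mitochondrial ribosomal proteins (65), and over all 7369 tested probe sets, in the 15 comparisons. At 8 h in SS the biogenesis median is 0.529 and the ribosomal protein median 0.123, and in PERK-/- cells under tunicamycin they are -0.336 and 0.0488.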

How the data were processed

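The values are the deposited ratios of 24 mouse arrays, each probe set relative to its own median over the arrays per the values. No source used here gives the normalization, software or any batch behind them, and arrays, not counts, limit the precision. Gene names come from the platform annotation, and all 49 members matched the RefSeq gene table by Entrez ID. The members and lists were chosen with earlier results of these data known. Each experiment of 12 arrays was fitted alone with limma 3.58.1 in R 4.3.3 (6 group means, trended eBayes, two-sided) on log2(ratio + 0.247), over 7369 probe sets never at 0.01 and not controls, with Benjamini-Hochberg adjustment at 0.05. The fit was tested on simulated data. Over all tested probe sets, correlations between groups of deviations from group means ran from -0.19 to 0.21, so no block was used. They do not test whether the shifts shared by members follow the replicate number. Named genes are the called members (at most 6 each way) or, with under 3 called, up to 3 each way whose arrays did not overlap, a fixed set given where levels are described, members of widest and narrowest spread, and floor-excluded members. Named genes of the other lists were picked among called ones. Alternatives were other scalings, a pseudocount of 0.0494, no filter, 1 fit of 24 arrays, a replicate block and leaving out each array.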

Additional observations from a re-analysis of the deposited data

Results flagged for a closer look

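These are differences between 2 lines in the response to 1 treatment. For Rpl39l the difference of the 8 h AP20187 responses, AA minus SS, was 2.64 on the log2 scale and passed the limma test. At 8 h 10 of 54 biogenesis, 3 of 21 other TOP and 5 of 65 mitochondrial ribosomal probe sets also passed this test, all lower. Of all 7369 tested, 8.78% passed and 504 were lower, so the mitochondrial share was near that of all. Among those of the lists were Nmd3 (-1.16), Taf1b (-1.02), Imp3 (-0.871), Nop58 (-1.03), Snhg5 (-1.7), Snhg1 (-1.71) and Gas5 (-1.38). Snhg5 (-1.28) also passed at 4 h, where 2.28% of all did. Of 15 alternatives, these passed in 13 for Nmd3, 9 for Taf1b, 5 for Imp3, 7 for Nop58, 14 for Snhg5, 14 for Snhg1, 10 for Gas5 and 6 for Snhg5 at 4 h, against all 15 for Rpl39l. Gas5 was already lower in untreated AA cells, at 0.146 of the SS level (limma adjusted p = 0.000136). A second group stands out only because both arrays of one line lay above their controls and both arrays of the other below. At 8 h these were one Rpl10a probe set (-0.908), Rps27 (-0.665), Rpl7l1 (-0.475) and one Rps29 probe set (0.738), and at 4 h Rpl37a (0.567), all AA minus SS. For tunicamycin, ATF4-/- minus wild type, these were one Rps24 probe set (-0.324) and Rps18 (-0.264). The limma test of each difference in this second group did not pass after adjustment. The share of all 7369 probe sets with such opposite splits was not counted. The second group therefore does not show that ribosomal proteins split this way more often than other genes.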

How the results depend on the processing

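No called member changed sign under an alternative, nor did the called biogenesis and TOP genes that were rerun. Single mitochondrial ribosomal genes and the remaining called biogenesis and TOP genes were not rerun. The count of called members after 4 h in SS (1) was 0 with all 24 arrays in 1 fit, with centring on the member median, with no filter, with quantile normalization and with the smaller pseudocount, and 0 without any 1 array. At 8 h in SS (3) it was 1 with no filter and with quantile normalization, and 1 to 4 without 1 array. For the AA minus SS difference of 8 h responses (1) it was 2 with 1 fit of all arrays, with centring on the array median and with the replicate block, and 1 to 3 without 1 array. For untreated AA minus SS (1) it was 0 with 1 fit, with member-median centring, with no filter and with the smaller pseudocount, and 0 without 1 array. For untreated PERK-/- minus wild type (0) it was 2 with 1 fit of all arrays. The cause of these changes was not tested. The replicate block changed no other member count. Member medians without 1 array ran from -0.39 to 0.124 (SS 4 h), -0.153 to 0.363 (SS 8 h), -0.165 to 0.248 (AA 8 h), -0.119 to 0.387 and -0.369 to 0.15 (AA minus SS at 4 h and 8 h), -0.184 to 0.326 (untreated AA minus SS), -0.113 to 0.0384 and -0.0684 to 0.106 (tunicamycin in ATF4-/- and PERK-/-), and -0.229 to -0.0576 and -0.116 to 0.0989 (ATF4-/- and PERK-/- minus wild type). With 2 arrays per group, a member with a small change cannot be told from replicate spread, and ratios give no signal over background.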
